A study of Mus musculus with 9 samples.

Results

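The unfolded protein response and the integrated stress response were read in cumulus cells through 10 genes: Hspa5, Hsp90b1, Dnajb9, Herpud1, Atf4, Xbp1, Ddit3, Trib3, Asns and Chac1. The members were all probe sets annotated to these genes, with no threshold on their values. All 10 genes were on the array, with 22 probe sets, out of 18194 annotated genes, and all 10 were among the 13447 genes bright enough to be tested. Cumulus cells are granulosa cells that lie around the oocyte inside the follicle.

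Cells came from 3 genotypes on a mixed B6/129 background: wildtype females, Bmp15-/- females, which lack the oocyte growth factor BMP15, and DM females, whose genotype is Bmp15-/-Gdf9+/-. GDF9 is the other oocyte growth factor of the same superfamily, so the DM animals lack BMP15 and keep 1 intact copy of Gdf9. All females were 4 to 5 months old and had been primed with 5 IU of equine chorionic gonadotropin for 48 hours, and the collection medium held 5 µM milrinone, which keeps oocytes in meiotic arrest. Each of the 3 arrays per genotype carried RNA from its own pool of 75 to 100 cumulus-oocyte complexes from 3 to 4 mice, stripped of oocytes. The comparisons ask what cumulus cells lose or gain without BMP15 and with less GDF9.

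When unfolded proteins collect in the endoplasmic reticulum (ER), 3 sensors in its membrane respond. IRE1 splices the mRNA of Xbp1 into a form that encodes an active transcription factor, ATF6 is cut to release another, and PERK phosphorylates the initiation factor eIF2alpha. Phosphorylated eIF2alpha lowers general translation but favours that of ATF4, and other kinases that sense amino acid shortage or viral RNA reach the same step, which is why this arm is called the integrated stress response. ATF6 and spliced XBP1 raise ER chaperones and degradation factors. ATF4 raises Ddit3, which encodes the transcription factor CHOP, and with CHOP it raises genes such as Trib3, Asns and Chac1. Much of this control acts on splicing, cleavage and translation, which an expression array does not read. In follicles, granulosa cells secrete protein hormones such as inhibins, and cumulus cells secrete matrix proteins after the ovulatory signal, and these proteins pass through the ER.

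The promoters are shown because the members are known for the response elements there, and because those elements differ between the arms. Windows of 300 bases, from 250 before to 50 after the start of transcription, were taken from RefSeq on GRCm38.p6, and all 10 genes matched. Capitals mark the fixed letters of 4 motifs, searched on both strands. ERSE is CCAAT and CCACG with 9 bases between them, and ERSE-II is ATTGG and CCACG with 1 base between them. UPRE is TGACGTGG, and CARE, the composite element that ATF4 binds with a C/EBP partner, is TGATGNAA. The 5 windows below are those of both abundant chaperones, of Herpud1, of the gene that changed most and of an ATF4 target.
Hspa5 (chr2:34771840-34772139, plus strand): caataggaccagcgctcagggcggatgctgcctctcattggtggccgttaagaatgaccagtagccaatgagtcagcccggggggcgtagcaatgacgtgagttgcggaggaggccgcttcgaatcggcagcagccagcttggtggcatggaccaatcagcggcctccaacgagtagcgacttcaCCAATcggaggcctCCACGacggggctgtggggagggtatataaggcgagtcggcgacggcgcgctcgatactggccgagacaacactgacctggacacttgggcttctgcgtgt
Hsp90b1 (chr10:86705395-86705694, minus strand): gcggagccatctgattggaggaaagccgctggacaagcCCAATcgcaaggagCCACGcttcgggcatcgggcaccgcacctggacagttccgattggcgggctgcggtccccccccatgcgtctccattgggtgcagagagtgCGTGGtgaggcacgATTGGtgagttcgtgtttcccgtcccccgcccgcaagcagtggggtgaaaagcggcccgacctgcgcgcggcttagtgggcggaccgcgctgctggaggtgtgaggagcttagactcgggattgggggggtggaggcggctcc
Herpud1 (chr8:94386179-94386478, plus strand): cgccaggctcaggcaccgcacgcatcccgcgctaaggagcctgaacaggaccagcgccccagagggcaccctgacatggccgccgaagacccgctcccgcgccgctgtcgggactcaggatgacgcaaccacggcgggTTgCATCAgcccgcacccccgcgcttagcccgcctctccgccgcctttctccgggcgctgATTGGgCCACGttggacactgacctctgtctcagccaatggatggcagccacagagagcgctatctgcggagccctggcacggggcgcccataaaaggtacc
Ddit3 (chr10:127290543-127290842, plus strand): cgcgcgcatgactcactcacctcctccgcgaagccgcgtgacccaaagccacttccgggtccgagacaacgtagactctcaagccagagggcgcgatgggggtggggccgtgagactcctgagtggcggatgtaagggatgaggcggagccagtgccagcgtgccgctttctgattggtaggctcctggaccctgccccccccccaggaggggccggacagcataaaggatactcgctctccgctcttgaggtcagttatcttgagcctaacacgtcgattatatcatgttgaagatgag
Asns (chr6:7693160-7693459, minus strand): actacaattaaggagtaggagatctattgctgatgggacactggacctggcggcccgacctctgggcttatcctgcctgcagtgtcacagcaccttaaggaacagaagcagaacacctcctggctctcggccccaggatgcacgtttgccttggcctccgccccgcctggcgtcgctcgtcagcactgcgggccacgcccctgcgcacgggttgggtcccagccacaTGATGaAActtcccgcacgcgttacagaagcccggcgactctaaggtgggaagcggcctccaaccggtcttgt

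Counting the start of transcription as 1 and the base just before it as -1, the ERSE of Hspa5 began at -65 on the plus strand. Hsp90b1 held a pair of ERSE matches, at -212 and, on the opposite strand, at -107. Herpud1 held both kinds of element, an ERSE-II at -52 and a CARE at -112. Asns held a CARE at -23, Chac1 at -193 and Trib3 at 15, within the transcribed part. No match to the 4 motifs was found in the windows of Dnajb9, Atf4, Xbp1 and Ddit3, which says only that these letters are not in these 300 bases. Among 32851 RefSeq promoters of the same length, ERSE was in 39 (0.119%), ERSE-II in 12 (0.0365%), UPRE in 222 (0.676%) and CARE in 1304 (3.97%). ERSE was in 2 of the 10 members, ERSE-II in 1, UPRE in 0 and CARE in 4. A match is a description of the sequence and not a measured binding site.

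Values are the authors' log2 expression values per probe set, and a gene's level is that of its brightest probe set. Values of a genotype are given in the order of its arrays 1 to 3, each 1 pool of mice. A difference of 1 is a factor of 2, and the deposited processing compresses changes of dim genes. Differences come from 1 limma fit over the 9 arrays, with Benjamini-Hochberg adjustment over the 13447 genes and a call at an adjusted p under 0.05. Over all probe sets, replicate arrays correlated at 0.988 to 0.995, and arrays of different genotypes at 0.975 to 0.992, so the ranges overlapped. The granulosa markers Inha and Fst were bright on every array, at 13.08 to 13.44, but not every marker of their list was so steady. The list of 10 cumulus and granulosa markers summed to 15.48 to 15.54 in wildtype, 15.48 to 15.49 in Bmp15-/- and 15.18 to 15.45 in DM, where 3 were called higher and 3 lower. Differences of these markers from wildtype ran from -0.58 to 1.03 in Bmp15-/-, where 0 were called, and from -0.89 to 2.29 in DM. For all marker counts here, the shares of all genes tested were 3.29% called higher and 5.78% lower in Bmp15-/-, and 9.95% and 18.2% in DM. Several other measures moved with genotype or with single arrays. The 3' minus 5' difference of the Gapdh control probe sets, a reading of RNA quality and amplification, was 0.52 to 0.59 in wildtype, 0.66 to 0.73 in Bmp15-/- and 0.79 to 0.95 in DM. The same difference for actin overlapped, at 1.87 to 1.90, 1.85 to 1.92 and 1.85 to 2.12. The array serial numbers run in genotype order, so order of processing and genotype cannot be told apart. Bmp15 itself, an oocyte transcript, read 9.58 and 8.41 on wildtype arrays 2 and 3. The other wildtype array read 5.10, and the 6 mutant arrays 5.05 to 5.10. Wildtype array 2 also had the highest summed level of 17 oocyte markers, 11.84, against 9.72 to 11.22 on the other 8 arrays, and 1 of the 16 tested oocyte markers was called in each mutant, lower. Theca and stroma markers summed to 9.15 to 9.44 in wildtype, 9.49 to 9.63 in Bmp15-/- and 9.93 to 10.30 in DM, where 3 of 6 tested were called higher and 1 lower. Surface epithelium markers summed to at most 9.66 in wildtype, 9.89 to 10.22 in Bmp15-/- and 10.05 to 10.11 in DM, with 1 of 6 called higher in Bmp15-/- and 2 in DM. Luteal and mural granulosa markers summed to 12.20 to 12.56, 13.29 to 13.40 and 13.01 to 13.40, with 2 of 4 called higher in each mutant. The 2 red cell genes on the array summed to 7.41 to 8.22, 5.66 to 6.60 and 5.52 to 5.86. Of these Alas2, the one tested, was called lower in both mutants. On DM arrays 1 and 3 neither gene was above the 40th percentile of its array. The defining theca marker Cyp17a1, the macrophage marker Adgre1 and the endothelial marker Pecam1 were set aside as dim. Other markers of these cells were bright enough: 3 of 6 immune and 1 of 5 endothelial markers were tested, and 0 were called. Immune markers summed to 7.87 to 8.01, 7.97 to 8.22 and 7.95 to 8.22 in wildtype, Bmp15-/- and DM. Endothelial markers summed to 6.90 to 6.94, 6.99 to 7.04 and 7.00 to 7.05. The part of all these measures in the results for the stress genes was not tested, except where arrays were left out as given below. In such pooled tissue, fewer cells of a type and less RNA per cell cannot be told apart.

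The ER chaperones did not move as a block. At their brightest probe sets the abundant pair, Hspa5 and Hsp90b1, varied little over the 9 arrays, while the co-chaperone gene Dnajb9 and the degradation factor gene Herpud1 rose in DM. Ddit3, the gene for CHOP, rose in both mutants, and no ATF4 or CHOP target among Trib3, Asns and Chac1 passed the test in any comparison. In Bmp15-/- against wildtype 1 of 10 members was called higher and 0 lower, where 3.29% of all genes tested were called higher, 5.78% lower and 9.07% either way. In DM against wildtype 3 of 10 were called higher and 0 lower, where 9.95% of all genes were called higher, 18.2% lower and 28.1% either way. Counted either way, both totals are near the share of all genes called. With wildtype array 1 as the lone wildtype array, which leaves fewer samples and assumes that it varies like the other groups, 0 of 10 were called in either mutant, and Ddit3 was at 0.63 in DM (adjusted p = 0.0895).

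**Figure D1:**
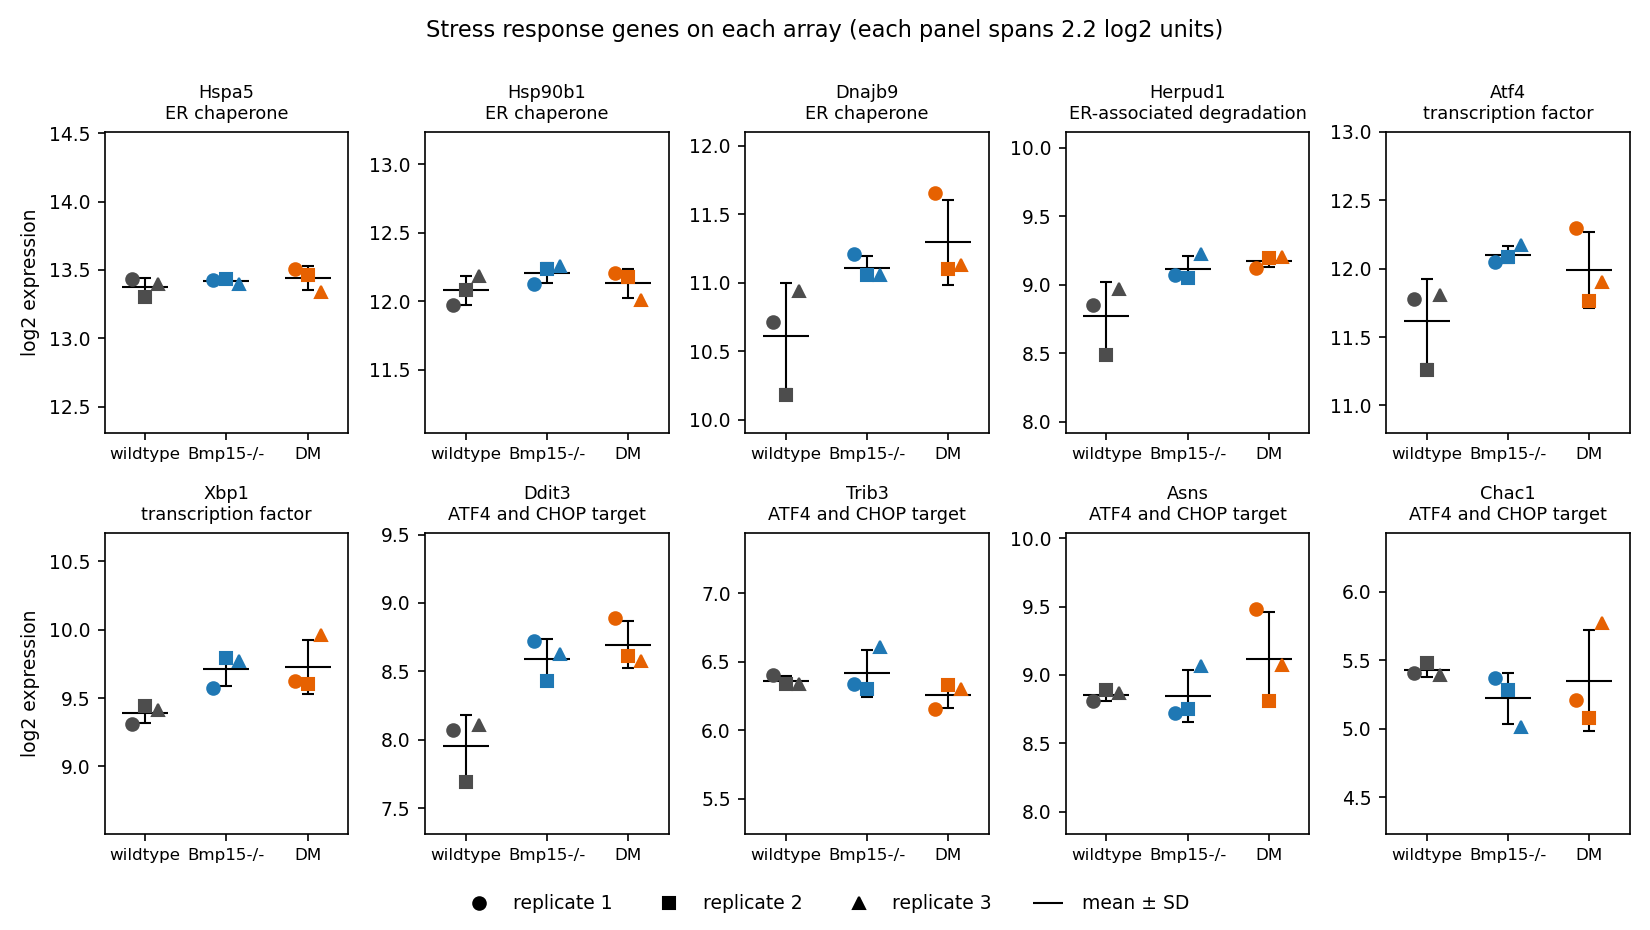
Log2 expression of the 10 genes on each array, 1 panel per gene, with the 3 genotypes on the horizontal axis, a marker per replicate array and the mean ± SD of each genotype. Every panel spans the same number of log2 units. Ddit3, Dnajb9, Herpud1 and Xbp1 sit higher on all mutant arrays than on all wildtype arrays, while Hspa5 is flat near 13.4.

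Hspa5 (chr2:34772090-34776529 on GRCm38.p6, as for all coordinates here) encodes BiP, the main Hsp70 chaperone of the ER lumen, which also holds the sensors inactive. It was among the brightest genes on the arrays, brighter in wildtype than 99.5% of genes. Hspa5 read 13.43, 13.30 and 13.40 in the wildtype pools, 13.42, 13.43 and 13.40 in the Bmp15-/- pools, and 13.51, 13.47 and 13.34 in the DM pools. The groups overlapped, and all 9 values lay within 0.20 of each other. The difference from wildtype was 0.04 ± 0.08 (SE, 95% interval -0.14 to 0.22) in Bmp15-/- and 0.06 ± 0.08 (-0.12 to 0.24) in DM, with adjusted p of 0.794 and 0.617 in limma. For this probe set the intervals exclude a rise in measured signal of the size seen for Ddit3. Its values lay near the top of the scale, where the highest value of all was 14.53. Whether changes in so bright a signal are compressed was not tested, and a dimmer probe set that rose is given further on.

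Hsp90b1 (chr10:86690841-86705444) encodes GRP94, the ER member of the Hsp90 family, which folds a limited set of secreted and membrane proteins. Its wildtype values were 11.97, 12.08 and 12.19, its Bmp15-/- values 12.13, 12.24 and 12.26, and its DM values 12.21, 12.18 and 12.01. The 3 groups overlapped. The difference was 0.13 ± 0.09 (adjusted p = 0.417) in Bmp15-/- and 0.05 ± 0.09 (adjusted p = 0.724) in DM in the limma fit. By brightest probe set, the 2 members with an ERSE in the window had the smallest range over the 9 arrays. It was 0.20 for Hspa5 and 0.29 for Hsp90b1, against 0.46 to 1.47 for the other 8. These 2 were also the brightest members. A dimmer probe set ran from 9.12 to 9.90 for Hspa5 and from 11.52 to 12.03 for Hsp90b1. A link between the motif and the range was not tested.

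Dnajb9 (chr12:44205897-44210068) encodes ERdj4, a J-domain partner of BiP and a textbook target of spliced XBP1. Dnajb9 read 10.71, 10.18 and 10.94 in the wildtype pools, 11.21, 11.06 and 11.06 in the Bmp15-/- pools, and 11.66, 11.10 and 11.13 in the DM pools. All 6 mutant arrays lay above all 3 wildtype arrays, and wildtype array 2 was lowest. The rise in DM was 0.68 ± 0.20, or 1.61-fold (95% interval 0.23 to 1.14, adjusted p = 0.0319 in limma). In Bmp15-/- the difference of 0.50 ± 0.20, or 1.41-fold, was not called (adjusted p = 0.155). The call in DM was lost without wildtype array 1 (0.74, adjusted p = 0.0629), without wildtype array 2 (0.47, adjusted p = 0.0944), and without DM array 1 (0.50, adjusted p = 0.101). It was also lost when only the 2 genotypes were fitted (adjusted p = 0.0668) and with wildtype array 1 as the lone wildtype (0.58, adjusted p = 0.173).

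Herpud1 (chr8:94386429-94395371) encodes a membrane protein that assembles the complex for ER-associated degradation, and both the ER arm and ATF4 are known to act on it. Herpud1 read 8.85, 8.49 and 8.97 in the wildtype pools, 9.07, 9.05 and 9.22 in the Bmp15-/- pools, and 9.12, 9.20 and 9.20 in the DM pools. Again every mutant array exceeded every wildtype array. The rise in DM was 0.40 ± 0.12, or 1.32-fold (adjusted p = 0.0349 in limma), and the difference in Bmp15-/- of 0.35 ± 0.12, or 1.27-fold, was not called (adjusted p = 0.108). A call this close to the threshold was lost whenever wildtype array 1 or 2 or any DM array was left out, with values of 0.26 to 0.45 and adjusted p of 0.0606 to 0.0935. It was also lost when only the 2 genotypes were fitted (adjusted p = 0.0649), with array weights (0.36, adjusted p = 0.0675) and with the lone wildtype array (0.32, adjusted p = 0.184). Its second probe set gave 0.36 in Bmp15-/- and 0.57 in DM, the latter with an adjusted p of 0.027 in the fit of probe sets.

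Xbp1 (chr11:5520641-5525993) encodes the factor that IRE1 activates by splicing, and its probe sets do not tell the spliced from the unspliced form. Xbp1 read 9.31, 9.44 and 9.41 in the wildtype pools, 9.57, 9.79 and 9.77 in the Bmp15-/- pools, and 9.63, 9.60 and 9.96 in the DM pools, again with no overlap between wildtype and mutant arrays. The difference of 0.32 ± 0.11, or 1.25-fold, in Bmp15-/- (adjusted p = 0.108) and that of 0.34 ± 0.11, or 1.27-fold, in DM (adjusted p = 0.0507) both missed the threshold in limma. It passed in DM under 9 of 21 alternatives, with quantile normalization giving 0.45 (adjusted p = 0.0263). The other 3 probe sets of Xbp1 gave 0.20 to 0.36 in Bmp15-/- and 0.31 to 0.34 in DM. In the fit of probe sets 1420012_at was called in both mutants (0.36, adjusted p = 0.0425, and 0.31, adjusted p = 0.029), and 1420011_s_at was called in DM (0.34, adjusted p = 0.020).

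Atf4 (chr15:80255184-80257545) encodes the factor at the centre of the integrated stress response, which is regulated mainly through translation. Atf4 read 11.78, 11.26 and 11.81 in the wildtype pools, 12.05, 12.08 and 12.17 in the Bmp15-/- pools, and 12.30, 11.76 and 11.90 in the DM pools. Wildtype array 2 was the lowest of the 9 arrays, and DM array 2 fell inside the wildtype range. The differences of 0.49 ± 0.17 (1.40-fold, adjusted p = 0.108) in Bmp15-/- and 0.37 ± 0.17 (1.30-fold, adjusted p = 0.137) in DM were not called in limma.

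Ddit3 (chr10:127290793-127296291) showed the clearest change of the 10. CHOP, its product, is a C/EBP family factor that promotes cell death under prolonged ER stress. Ddit3 read 8.07, 7.69 and 8.11 in the wildtype pools, 8.72, 8.43 and 8.63 in the Bmp15-/- pools, and 8.89, 8.61 and 8.58 in the DM pools. Each mutant array exceeded each wildtype array, the nearest by 0.33. The rise was 0.64 ± 0.14, or 1.56-fold (95% interval 0.33 to 0.95, adjusted p = 0.0242), in Bmp15-/- and 0.74 ± 0.14, or 1.67-fold (0.43 to 1.05, adjusted p = 0.00435), in DM, by limma. In DM it remained called with each array left out in turn, at 0.61 to 0.81. In Bmp15-/- the call was lost without wildtype array 1 (0.69, adjusted p = 0.0502), wildtype array 2 (0.51, adjusted p = 0.0774), Bmp15-/- array 1 (0.57, adjusted p = 0.067) or Bmp15-/- array 3 (0.62, adjusted p = 0.084), and with the lone wildtype array (0.52, adjusted p = 0.302).

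The second probe set of Ddit3, 1443897_at, did not follow. It was dim, at 5.4 to 6.4, and its differences were -0.41 (adjusted p = 0.187) in Bmp15-/- and 0.01 (adjusted p = 0.967) in DM in the fit of probe sets. With the mean of both probe sets Ddit3 was not called, at 0.11 (adjusted p = 0.633) in Bmp15-/- and 0.38 (adjusted p = 0.0561) in DM. In the reference annotation the span of Ddit3 overlaps those of Mbd6 and Mars1. Which transcript the dim probe set reads was not tested.

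Trib3 (chr2:152337425-152344060) encodes a pseudokinase that CHOP and ATF4 induce and that restrains Akt and ATF4 signalling. Trib3 read 6.40, 6.33 and 6.33 in the wildtype pools, 6.33, 6.30 and 6.61 in the Bmp15-/- pools, and 6.15, 6.33 and 6.30 in the DM pools. The differences were 0.06 ± 0.10 (adjusted p = 0.762) and -0.10 ± 0.10 (adjusted p = 0.518) in limma. The DM values all lay below the wildtype values, by a margin lost in rounding, and the Bmp15-/- values overlapped them. Its other probe set was dim, at 4.87 to 5.24. In the fit of probe sets it was at 0.21 (adjusted p = 0.229) in Bmp15-/- and 0.03 (adjusted p = 0.870) in DM.

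Asns (chr6:7675165-7693209) encodes asparagine synthetase, a standard reporter of amino acid shortage through ATF4. Asns read 8.81, 8.89 and 8.87 in the wildtype pools, 8.72, 8.75 and 9.07 in the Bmp15-/- pools, and 9.48, 8.81 and 9.07 in the DM pools. DM array 1 was highest, and DM array 3 and Bmp15-/- array 3 also lay above all 3 wildtype values. The differences were -0.01 ± 0.16 (95% interval -0.37 to 0.36, adjusted p = 0.984) and 0.26 ± 0.16 (-0.10 to 0.63, adjusted p = 0.259) in limma, and the latter was 0.08 without DM array 1. Its other probe set was flat, at -0.07 and -0.06.

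Chac1 (chr2:119351242-119354326) encodes an enzyme that degrades glutathione and is a sensitive target of ATF4. Chac1 read 5.40, 5.48 and 5.39 in the wildtype pools, 5.37, 5.28 and 5.01 in the Bmp15-/- pools, and 5.21, 5.08 and 5.77 in the DM pools. It was dim, since the 40th percentile of an array averaged 5.02, and the Bmp15-/- values all lay below wildtype while the DM values overlapped it. In limma the differences of -0.20 ± 0.17 (adjusted p = 0.482) and -0.07 ± 0.17 (-0.46 to 0.31, adjusted p = 0.78) did not pass. Near the floor of the array a change in so dim a gene is compressed, so these values bound it poorly.

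**Figure D2:**
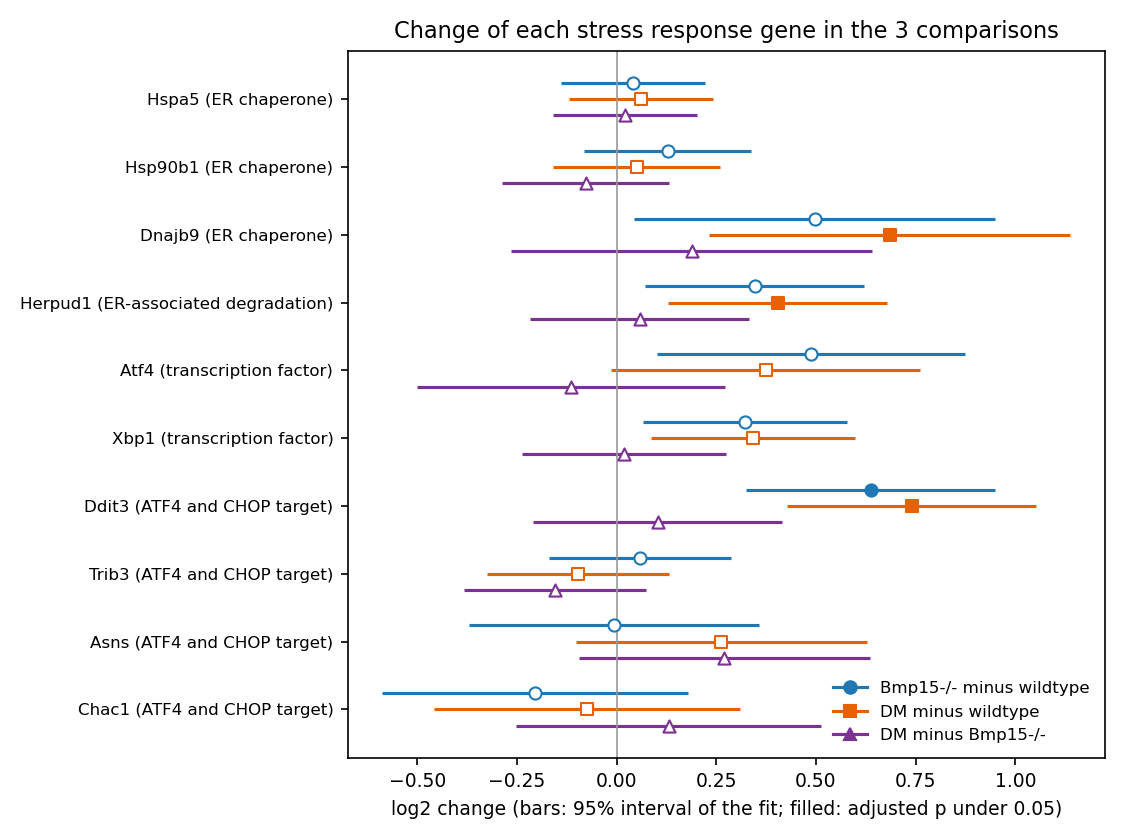
Log2 difference of each gene from wildtype in Bmp15-/- and in DM, and of DM from Bmp15-/-, with 95% intervals from the limma fit and filled markers for calls. Ddit3 lies farthest from 0 in both mutants, at 0.64 and 0.74, and the intervals of Hspa5, Hsp90b1, Trib3, Asns and Chac1 include 0 in each comparison.

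No member separated the mutants from each other. In DM against Bmp15-/- 0 of 10 were called in limma, and 0 had an unadjusted p under 0.05, where 1.64% of all genes were called higher, 1.61% lower and 3.25% either way. The differences ran from -0.15 ± 0.10 for Trib3 to 0.27 ± 0.16 for Asns. That of Ddit3 was 0.10 ± 0.14 (95% interval -0.21 to 0.41, adjusted p = 0.73), and that of Dnajb9 was 0.19 ± 0.20 (adjusted p = 0.657). A call for Dnajb9 and Herpud1 in DM but not in Bmp15-/- does not show that the mutants differ in these genes. Both mutants were compared with the same wildtype arrays, of which array 2 had the lowest values of Hspa5, Dnajb9, Herpud1, Atf4 and Ddit3.

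The classes were set side by side by their medians. For the ER genes Hspa5, Hsp90b1, Dnajb9 and Herpud1 the median difference was 0.24 in Bmp15-/- and 0.23 in DM. For Ddit3, Trib3, Asns and Chac1, the targets of ATF4 and CHOP, it was 0.03 and 0.09. For Atf4 and Xbp1 it was 0.40 and 0.36, and for all 13447 genes it was -0.04 and -0.06. Per array and relative to the wildtype mean, the ER median was 0.07, -0.18 and 0.15 in the wildtype pools, 0.17, 0.22 and 0.31 in the Bmp15-/- pools, and 0.24, 0.26 and 0.20 in the DM pools. The target median was 0.01, 0.01 and -0.01 in the wildtype pools, -0.04, -0.08 and 0.23 in the Bmp15-/- pools, and 0.21, -0.04 and 0.28 in the DM pools. So the ER median was above wildtype on all 6 mutant arrays and the target median on 3 of them, but neither median stands for its class. In DM each held called genes beside genes that did not pass, in Bmp15-/- no ER gene was called, and the spread of array medians within genotypes was 0.11 and 0.14 (SD). In DM the target median was 0.24 without DM array 2, and the ER median was 0.36 with the mean of each gene's probe sets. A difference between classes was not tested.

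**Figure D3:**
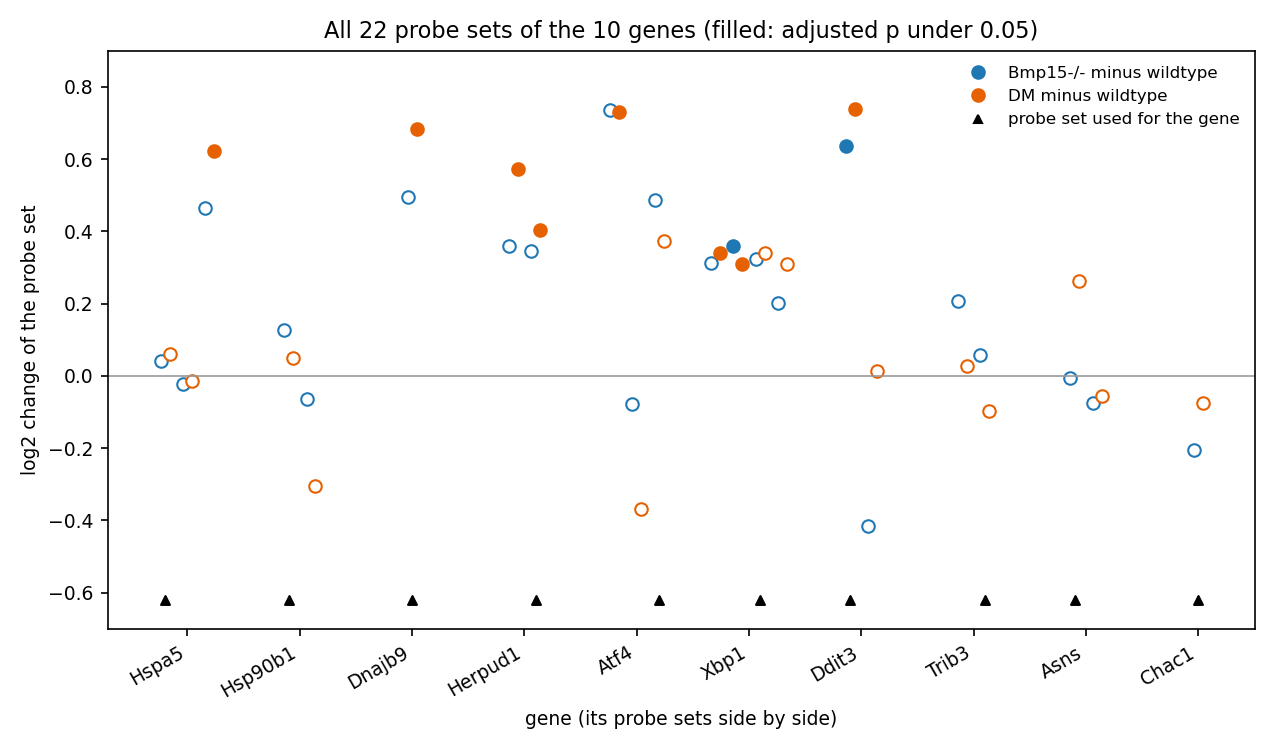
Log2 difference from wildtype of each of the 22 probe sets of the 10 genes in both mutants, grouped by gene, with filled points for calls and a triangle under the probe set used for the gene. Probe sets of Xbp1 and Herpud1 lie together, whereas those of Ddit3, Hspa5 and Atf4 do not. In DM those of Hsp90b1 (0.05 and -0.30) and Asns (0.26 and -0.06) also lie apart.

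All 22 probe sets passed the filter on dim values. Fitted on their own, 2 of them were called higher and 0 lower in Bmp15-/-, where 2.05% of all 27991 probe sets tested were called higher, 4.28% lower and 6.33% either way. In DM 8 were called higher and 0 lower, where the shares were 8.09% higher, 16.2% lower and 24.2% either way. In DM against Bmp15-/- 0 were called, where the shares were 1.01%, 0.922% and 1.93%. Probe sets of 1 gene read the same RNA and are not replicates of each other. Hspa5 is a case where the choice matters. Its dimmer probe set 1447824_x_at read 9.12, 9.22 and 9.12 in the wildtype pools, 9.31, 9.64 and 9.90 in the Bmp15-/- pools, and 9.72, 9.79 and 9.81 in the DM pools. That is a rise without overlap, of 0.46 (adjusted p = 0.077) and 0.62 (adjusted p = 0.011), while the third probe set was at -0.02 in both mutants. With the mean of its probe sets Hspa5 was called in DM (0.22, adjusted p = 0.0435). The suffix of 1447824_x_at marks probes that can hybridise to unrelated transcripts, and the span of Hspa5 overlaps that of Rabepk in the annotation. The probe sets used for Trib3 and Asns, 1456225_x_at and 1433966_x_at, carry the same suffix, as does 1438992_x_at of Atf4. For Hsp90b1 the second probe set was at -0.06 and -0.30. For Atf4, 1438992_x_at was at 0.74 (adjusted p = 0.052) and 0.73 (adjusted p = 0.022), and the dim 1439258_at at -0.08 and -0.37.

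The remaining genes of these pathways were taken from lists of sensors, chaperones, degradation factors and target genes. Their counts stand beside shares over all genes of 3.29% higher and 5.78% lower in Bmp15-/-, and 9.95% higher and 18.2% lower in DM. Of 15 sensors and eIF2alpha regulators, 0 were called in Bmp15-/- and 4 in DM by limma, 2 each way, with a list median of -0.01. Ppp1r15a, whose product GADD34 brings the phosphatase back to eIF2alpha, rose by 0.61 ± 0.13 (adjusted p = 0.0073). Creb3, an ER-bound factor, rose by 0.44 (adjusted p = 0.0372), but its 3 other tested probe sets were at 0.02 to 0.12 and were not called. Atf6b fell by 0.48 and Eif2ak3, the gene for PERK, fell by 0.43 (adjusted p = 0.0182 and 0.0423). With single arrays left out the counts in DM were 1 to 2 higher and 0 to 2 lower. The calls of Creb3, Atf6b and Eif2ak3 were lost under 8, 4 and 14 of 21 alternatives.

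Of 20 other ER chaperones and folding enzymes tested, 1 was called lower and 0 higher in Bmp15-/-, near the background, and 7 were called lower and 1 higher in DM, by limma, where 18.2% of all genes were called lower. The list median was -0.06 and -0.12, beside -0.04 and -0.06 over all genes, and the differences in DM ran from -1.04 to 0.39. Creld2, a secreted ER stress protein, read 10.59, 10.81 and 10.55 in the wildtype pools, 10.41, 10.26 and 10.31 in the Bmp15-/- pools, and 9.81, 9.99 and 9.91 in the DM pools. The 3 groups did not overlap, and the fall in DM was 0.75 on the log2 scale (SE 0.10, adjusted p = 0.000701). Ero1a, the oxidase that recharges protein disulfide isomerase, fell by 1.04 in DM (adjusted p = 0.000312) and by 0.67 in Bmp15-/- (adjusted p = 0.00948). Dnajb11, another J-domain partner of BiP, fell by 0.51 (adjusted p = 0.00254), and Manf, a secreted stress protein, fell by 0.59 (adjusted p = 0.00672), both in DM. With wildtype array 1 as the lone wildtype, 2 were called lower in DM. ERSE was in the promoter windows of 6 of 17 of these genes with a window, among them Creld2, and ERSE-II in that of Dnajb11.

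Of 17 degradation factors tested beside Herpud1, 4 were called higher and 7 lower in DM, where 9.95% and 18.2% of all genes were. In Bmp15-/- 1 was called each way, near the background of 3.29% and 5.78%. The medians were -0.27 in DM and -0.13 in Bmp15-/-. Selenos, a selenoprotein of the degradation complex, rose by 0.79 ± 0.09 in DM (adjusted p = 0.000421 in limma). Ube2j1, a ubiquitin-conjugating enzyme of the ER membrane, fell by 0.47 (adjusted p = 0.00373), and Faf2, which recruits the ATPase that extracts proteins, fell by 0.62 (adjusted p = 0.00464). Edem3, a mannosidase, fell by 0.39 (adjusted p = 0.00631), but the mean of its probe sets gave a difference of 0.15. With means of probe sets 1 factor was called higher in DM, and with the lone wildtype array 1 was called higher and 0 lower.

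**Figure D4:**
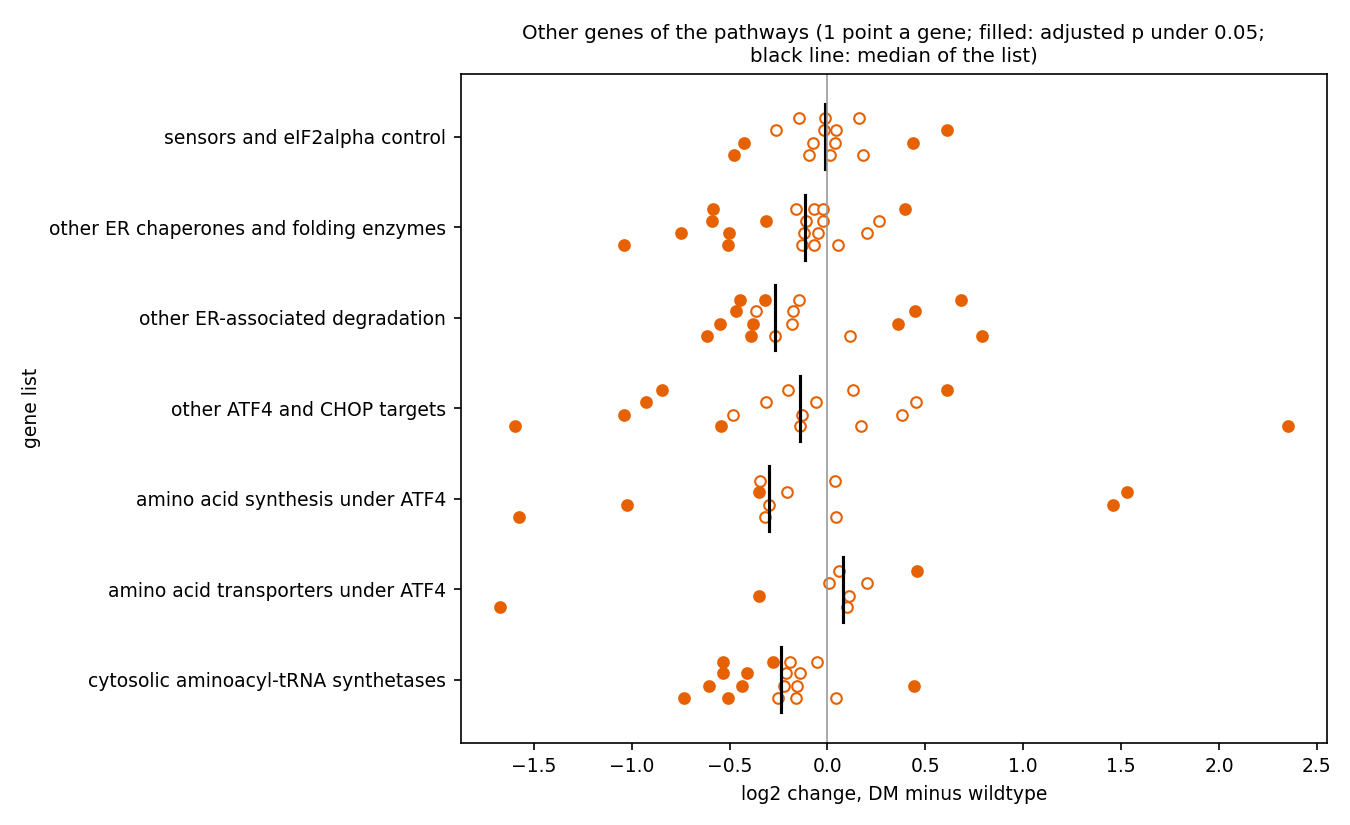
Log2 difference of DM from wildtype for each tested gene of the pathway lists, a point per gene, with a black line at the list median and filled points for calls. The medians of all lists but the amino acid transporters lie below 0, that of the sensors at -0.01, while Atf3 stands alone at 2.35. Over all genes tested, not drawn here, the median was -0.06.

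Of 17 other targets of ATF4 and CHOP tested, 1 was called higher and 2 lower in Bmp15-/-, and 2 higher and 5 lower in DM, with medians of -0.07 and -0.14. Over all genes in DM the shares were 9.95% and 18.2%. Atf3, a stress-induced factor that is also an immediate early gene, rose by 2.35 ± 0.42 in DM (adjusted p = 0.00349 in limma). Ppp1r15a rose as given above, while Vldlr, a lipoprotein receptor, fell by 1.60 (adjusted p = 0.000157) and Ero1a is on this list too. Among 11 enzymes of amino acid synthesis, 2 were called higher and 3 lower in DM, with Cbs (1.46 ± 0.11) and Gpt2 (1.53 ± 0.13) up and Shmt2 down (-1.57 ± 0.14). Among 8 amino acid transporters, 1 was higher and 2 lower in DM, where Slc6a9, a glycine transporter, fell by 1.67 (adjusted p = 0.000287). Of 18 cytosolic tRNA synthetases, of which ATF4 is known to raise some, 8 were called lower and 1 higher in DM, and 2 lower in Bmp15-/-, with medians of -0.24 and -0.20. Cars fell by 0.74 and Rars by 0.61 in DM (adjusted p = 0.00238 and 0.00306). The other tested probe set of Cars was at -0.12 and was not called. Without wildtype array 1, wildtype array 2 or DM array 1 the count of synthetases lower in DM was 5, and with the lone wildtype array it was 1. A CARE was in the promoter windows of 4 of 15 other targets and 5 of 11 synthetases with a window.

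The genes that moved beside Ddit3 and Dnajb9 include a group outside both pathways. Of 17 immediate early genes, which respond to growth factors and stress within minutes, 13 were called higher in DM and 4 in Bmp15-/-, and 0 lower, by limma, with medians of 1.07 and 0.63. Over all genes 9.95% were called higher and 18.2% lower in DM, and 3.29% and 5.78% in Bmp15-/-. The same shares stand beside the heat shock genes below. Egr2 rose by 2.09 ± 0.36 and Junb by 1.07 ± 0.19 in DM (adjusted p = 0.00306 and 0.00363). Per array and relative to the wildtype mean, the list median was 0.39, -0.47 and 0.11 in wildtype, 0.50 to 0.79 in Bmp15-/- and 0.97 to 1.26 in DM. Wildtype array 2, lowest here, was also lowest of the 9 arrays for Ddit3, Dnajb9, Herpud1 and Atf4. Without it, the difference of Ddit3 in DM was 0.61 and remained called. The part of the immediate early response in the rise of Ddit3 was not tested. The count in Bmp15-/- was 7 without wildtype array 1, and 1 without wildtype array 3 or any 1 of the Bmp15-/- arrays. In DM it was 12 to 14 with single arrays left out and 3 with wildtype array 1 as the lone wildtype. Of 10 cytosolic heat shock genes, 2 were called higher in DM, the inducible Hspa1a and Hspa1b, and 0 in Bmp15-/-, with medians of 0.03 and 0.01. Those 2 genes are near-identical copies, so the array may not tell them apart, and without wildtype array 1, wildtype array 2 or DM array 1 neither was called.

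Among 2524 genes with a range of at least 1 log2 unit over the 9 arrays, the 3 whose pattern was most like that of Ddit3 were Spry2, Snhg12 and Gpc4. Their root mean square differences from it, after subtracting each gene's wildtype mean, were 0.0971, 0.102 and 0.107 log2 units. Spry2 encodes an inhibitor of receptor tyrosine kinase signalling. For Hspa5 the nearest were Rab40c, Acsl3 and Cdk10, at 0.228, 0.251 and 0.252. Hspa5 itself had a range of 0.20, so the limit on range kept out any gene as flat, and these distances say nothing of how many genes share its pattern.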

How the data were processed

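Expression in cumulus cells was measured on 9 Affymetrix arrays, 3 per genotype. The authors deposited 1 log2 value per probe set and array. RMA and the affy package are named per the submitters' processing notes, with versions and settings not given in the sources used here. Per the labels' protocols, 10 ng of RNA per sample went through 2 rounds of amplification, which favours 3' ends. Arrays have no read depth, and their number limits the precision.

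Probe sets were named through a platform annotation and RefSeq GRCm38.p6: 34958 of 45101 had 1 gene, 932 several and 9211 none listed. For each of 18194 genes the brightest probe set on average was used, and 13447 passed a filter of at least 3 of 9 arrays above their own 40th percentile. All arrays entered 1 limma fit (version 3.58.1, lmFit and eBayes, R 4.3.3) with genotype as the only term and 6 residual degrees of freedom. The script was tested on simulated data. Pools of mice were separate, so p-values measure the spread between pools.

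All 10 members are named in every comparison. From each pathway list up to 4 called genes with the smallest p were named per comparison, marker genes are given as levels, and for Ddit3 and Hspa5 the 3 genes most alike in pattern. The members and lists were chosen with earlier results of these data known. Alternatives covered the filter, the probe set rule, normalization, a floor, the samples fitted, variance moderation, array weights, a replicate block and leaving out arrays. Scanner files and protein sequences were not used here.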

Additional observations from a re-analysis of the deposited data

How the results depend on the processing

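Of the 30 differences of the 10 genes, 22 kept their direction under all 21 alternatives (20 for Chac1), and the 8 others, none of them called, crossed 0. Many alternatives could not move a difference, so there a kept direction was fixed in advance. These were the filters, the fit of probe sets, the fit of only 2 genotypes, variance moderation and the replicate block. Leaving out an array of the genotype not compared could not move it either. In Bmp15-/- against wildtype, Asns was at 0.087 with quantile normalization and 0.041 with wildtype array 1 as the lone wildtype, where Hspa5 was at -0.014. With single arrays left out, Asns ran from -0.117 to 0.0558 and Trib3 from -0.0398 to 0.115. In DM against wildtype, Hsp90b1 was at -0.127 with the mean of a gene's probe sets. Outside the 10 genes, Edem3 was called lower in DM in the main fit but was at 0.15 with that mean. With single arrays left out, Hsp90b1 ran from -0.00367 to 0.112 and Chac1 from -0.283 to 0.0634. In DM against Bmp15-/-, Xbp1 was at -0.0341 with array weights and ran from -0.0954 to 0.0821 with single arrays left out, Hspa5 from -0.0148 to 0.0695 and Chac1 from -0.0787 to 0.268. The count of members called in Bmp15-/- was 0 with the mean of probe sets, 2 with array weights (Xbp1 and Ddit3), 0 with the lone wildtype array and 0 to 2 with single arrays left out. In DM it was 1 when only the 2 genotypes compared were fitted, 0 with the lone wildtype array and 1 to 3 with single arrays left out. The median of the ATF4 and CHOP targets in DM was 0.26 with the stricter filter, which drops Chac1, and 0.0398 to 0.241 with single arrays left out. That of the ER genes in DM was 0.36 with the mean of probe sets. Causes of these shifts were not tested, beyond the fewer genes or samples named.

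Over all genes, leaving out single arrays gave 445 to 1663 calls in Bmp15-/-, 2648 to 4157 in DM and 105 to 922 in DM against Bmp15-/-. The counts with only 2 genotypes were 1894, 3232 and 117, those with array weights 2350, 4208 and 537, and those with the lone wildtype array 59, 812 and 117. Whether replicate numbers pair the samples is not settled by these values. Arrays of the same number in different genotypes had correlated deviations above 0.1 in 2 of 9 pairs, and arrays of different numbers in 5 of 18. The highest correlation was 0.26 for the same number and 0.17 for different numbers, and 4 of 9 arrays correlated best with one of their own number. With the replicate block 1 member was called in Bmp15-/-, 4 in DM (Xbp1 added) and 0 in DM against Bmp15-/-, and 1084, 3587 and 360 genes. Precision is limited by 3 arrays per genotype, and by low signal for Chac1 and Trib3.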
